A study of Rattus norvegicus with 6 samples.

Results

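Dlg4 encodes PSD-95, the scaffold protein of excitatory synapses, and its signal was followed here on 6 one-color Agilent circRNA arrays of rat hypothalamus. The gene was chosen by its probe, A_44_P238314, which carries the accession NM_019621 and was taken as a neuronal postsynaptic gene with a strong signal among the linear transcript probes. It was 1 of 38 genes with a symbol on 39 linear transcript probes, out of 62 linear transcript probes and 14227 probes in all. The choice used the level of the signal, so that its brightness is given as a description only. On every array the probe was the second or the third brightest of the 62 linear transcript probes. Between 92.6% and 95.5% of the circRNA probes were dimmer on the same array. Brightness also depends on how well each probe binds, and it does not order the transcripts by amount.

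The HA group on the arrays comprised 3 male Sprague Dawley rats, a part of the study's HA rats. They spent 2 h per day for 30 days at 35°C and a relative humidity of 55%. The C group on the arrays comprised 3 male Sprague Dawley rats kept at 24°C over the same 30 days. The labels call this a heat exposure of 0 days, and no humidity is given for the C rats. The study started with 28 rats weighing 180 to 200 g, fed freely, and their age is not given in the sources used here. All rats were sacrificed on day 31 under pentobarbital sodium, each array held the hypothalamus, with the preoptic area, of a single rat, and all RNA was digested with RNase R before labeling. The comparison of HA with C asks whether repeated heat exposure went along with a different Dlg4 signal in the tissue that regulates body temperature.

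PSD-95 sits under the membrane of the postsynaptic side, where its PDZ domains bind the tails of NMDA receptors and of proteins that carry AMPA receptors. Through its SH3 and guanylate kinase domains it reaches the Dlgap and Shank proteins, which link the receptor complex to the actin cytoskeleton. RNase R degrades RNA from free 3′ ends and spares closed circles, so that a messenger RNA such as that of Dlg4 is a target of the digestion. The probe reports whatever labeled RNA holds its sequence, and messenger RNA left after the digestion cannot be told apart from a circle with the same exon. No array of undigested RNA was analysed here. In whole hypothalamus, fewer neurons and less Dlg4 RNA per neuron cannot be told apart either.

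The Dlg4 probe was printed on 10 spots of each array, 60 spots in all. All 60 spots were well above background, and 0 were saturated. The software marked 3 spots as population outliers, 1 each on C replicate 1, C replicate 2 and HA replicate 3, which left 57 spots. The marked spots on C replicate 1 and C replicate 2, with processed signals of 2042 and 1520, lay within the range of the spots kept. The marked spot on HA replicate 3, at 1886, lay under the lowest one kept.

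The signal of the spots kept, on the linear scale after the software's background subtraction, was 2091 ± 60.7 (SD over 9 spots) on C replicate 1, with a range of 1970 to 2177. On C replicate 2 it was 1390 ± 59.6 (9 spots), with a range of 1322 to 1527. On C replicate 3 it was 1717 ± 41.3 (10 spots), with a range of 1657 to 1769. The C rats thus lay apart from each other, with C replicate 1 the brightest and no spot shared between their ranges. On HA replicate 1 the signal was 1261 ± 33.2 (10 spots), with a range of 1222 to 1303. On HA replicate 2 it was 2133 ± 29.3 (10 spots), with a range of 2085 to 2169. On HA replicate 3 it was 2066 ± 82.9 (9 spots), with a range of 1953 to 2188. HA replicate 1 was the dimmest of the 6 arrays, while the other HA arrays were among the 3 brightest, so that the C values lay inside the span of the HA values.

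**Figure D1:**
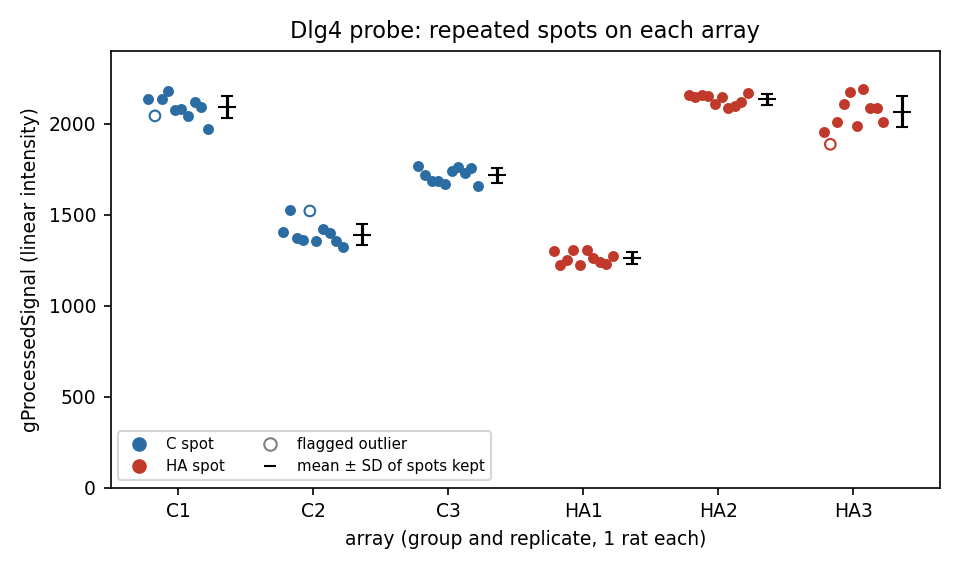
Processed signal (linear intensity, vertical axis) of the 10 Dlg4 spots on each of the 6 arrays (horizontal axis), blue for C and red for HA, with open circles for spots marked as outliers and black bars for the mean ± SD of the spots kept. HA replicate 1 lies lowest at 1261 and HA replicate 2 highest at 2133, and spots of 1 array lie close together.

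The order of the arrays before normalization was HA replicate 2, C replicate 1, HA replicate 3, C replicate 3, C replicate 2 and HA replicate 1. The first 3 of these did not differ beyond their spots, since neighbours in the order differed by 1.02-fold and 1.01-fold and their spot ranges overlapped. C replicate 3 lay 1.20-fold below HA replicate 3, C replicate 2 lay 1.23-fold below C replicate 3, and HA replicate 1 lay 1.1-fold below C replicate 2. None of these 3 neighbouring pairs had overlapping spots. Spots of 1 array share the RNA of a single rat, so these gaps describe rats and arrays and not the groups.

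The signal stood far above the level of spots without a target. The 77 negative control spots of each array had medians between 1.0 and 1.5, and the local background around the Dlg4 spots had medians between 14.5 and 15.5. The highest negative control spot of an array had a processed signal of 1.27 to 4.01, and the lowest Dlg4 spot kept on any array, on HA replicate 1, had 1222. Dlg4 was thus measured on all 6 arrays, and no value had to be given as a bound.

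The repeated spots agreed closely within an array. Their SD on the log2 scale lay between 0.020 on HA replicate 2 and 0.060 on C replicate 2. Its mean over the 6 arrays was 0.042 for the processed signal of the spots kept. This mean was 0.045 with the marked spots included and 0.056 on the median intensity without background correction. The HA arrays had an SD between spots of 0.038 ± 0.019 (SD, n = 3) and the C arrays one of 0.046 ± 0.013 (SD, n = 3), a difference within the spread between arrays (two-sided exact permutation test, P = 0.7, where 3 rats against 3 allow no P under 0.1). Between rats of the same group the SD of the Dlg4 signal was 0.37 log2 units before normalization and 0.24 after it. These values were 8.69 and 5.66 times the mean SD of 0.042 between the spots kept. Each rat was on an array of its own, so that differences between rats cannot be told apart from differences between arrays.

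On HA replicate 1 the intensity of a spot went along with its place on the array before the software's correction. The 10 spots lay in rows 5 to 33 (5 spots) and in rows 102 to 175 (5 spots) of the 192 rows. On HA replicate 1 the median intensity of a spot, before background subtraction, had a mean of 1167 over the upper 5 spots and 1373 over the lower 5 spots, a ratio of 1.18. On the other 5 arrays this ratio was between 1.00 and 1.06. In the processed signal the ratio was 1.00 on HA replicate 1 and between 0.953 and 1.02 on the other arrays. Of the 10 positions, 0 deviated to the same side of the array mean on all 6 arrays, and the largest mean deviation of a position was 0.035 log2 units.

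**Figure D2:**
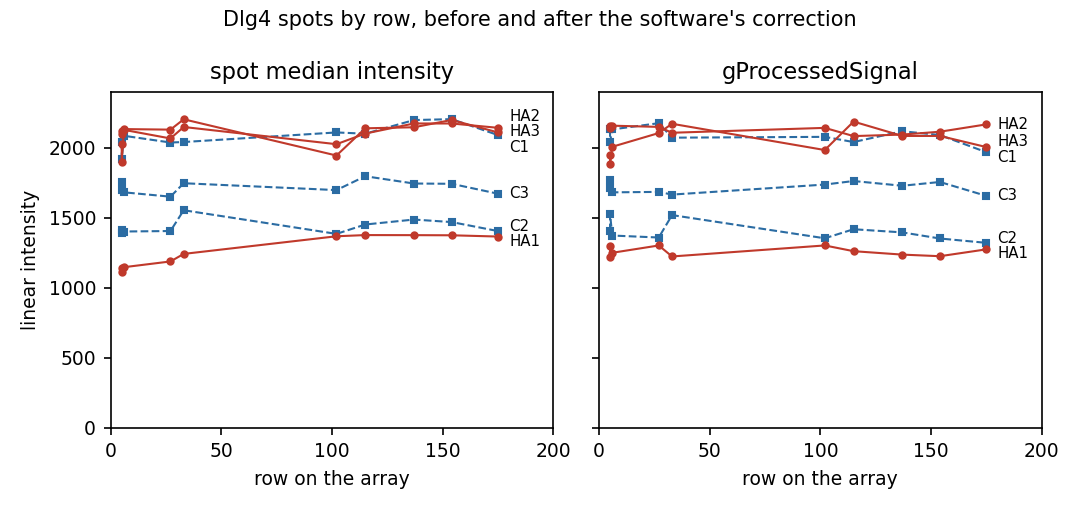
Dlg4 spots by their row on the array (horizontal axis), with the median intensity of the spot on the left and the processed signal on the right (vertical axis, linear intensity), as blue dashed lines for C and red solid lines for HA. On HA replicate 1 the median intensity is 1.18 times as high in the lower rows as in the upper rows, and the processed signal is level at a ratio of 1.00.

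Before normalization between arrays, the mean log2 signal of Dlg4 was 11.03, 10.44 and 10.75 on C replicates 1, 2 and 3. It was 10.30, 11.06 and 11.01 on HA replicates 1, 2 and 3. The HA mean was 10.79 ± 0.43 (SD, n = 3) and the C mean 10.74 ± 0.29 (SD, n = 3), which differed by 0.052 log2 units or 1.04-fold. The groups overlapped, and rats of a group lay further apart than the group means did (P = 0.9 in a two-sided exact permutation test).

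Quantile normalization, which the methods of the study name, gives all arrays the same distribution of values. After it, the log2 signal of Dlg4 was 10.95, 10.36 and 10.64 on C replicates 1, 2 and 3. It was 10.85, 10.76 and 11.09 on HA replicates 1, 2 and 3. HA replicate 1 thus moved from the lowest of the 6 arrays to the third place, and HA replicate 2 moved from the highest to the fourth. Normalization raised the Dlg4 value by 0.55 log2 units on HA replicate 1 and by 0.08 on HA replicate 3, and changed it by -0.30 on HA replicate 2 and by -0.11 to -0.08 on the C arrays. The median signal of all circRNA probes was 88.6 on HA replicate 1, 149 on HA replicate 2 and 118 to 135 on the other 4 arrays. The part of these array-wide differences in the Dlg4 values was not tested.

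**Figure D3:**
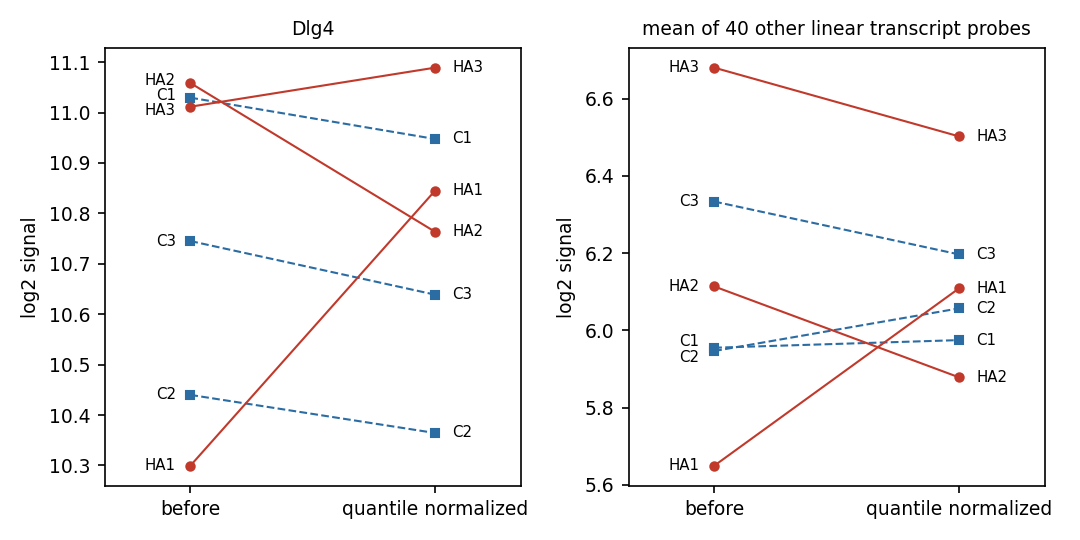
Log2 signal (vertical axis) of Dlg4 on the left and mean log2 signal of the other 40 linear transcript probes well above background on all arrays on the right, before and after quantile normalization (horizontal axis), for 3 HA arrays in red and 3 C arrays in blue, with vertical axes that do not start at 0. Dlg4 on HA replicate 1 rises from 10.30 to 10.85, and the order of the HA arrays changes in both panels.

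Dlg4 did not pass the test between the HA and C groups. The normalized log2 signal was 10.90 ± 0.17 (SD, n = 3) for HA and 10.65 ± 0.29 (SD, n = 3) for C. The difference was 0.25 log2 units (standard error 0.20), or 1.19-fold higher in the HA group, in limma's moderated test fitted over 13886 probes (unadjusted P = 0.244, adjusted P = 0.923). The HA and C values overlapped, as C replicate 1 lay above HA replicates 1 and 2. The 95% confidence interval ran from -0.20 to 0.70 log2 units, that is from 0.870-fold to 1.62-fold. It holds no difference as well as a rise beyond the study's limit of 1.5-fold, and with 3 rats per group the data do not separate them. An exact permutation test on the same 6 normalized values gave P = 0.3.

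Of all tested probes, 368 (2.65%) met both limits of the study in limma, an unadjusted P under 0.05 and a change over 1.5-fold, and Dlg4 was not one of them. In the direction of Dlg4, with HA above C, there were 220 such probes (1.58%). An unadjusted P under 0.05 was found for 648 probes (4.67%), and 0 probes reached an adjusted P under 0.05. These counts are those of the fit made here over all kinds of probes. They are not the study's own count, which covered circRNAs and was smaller. A smaller P than that of Dlg4 was found for 26.3% of the tested probes, and 29.3% had a larger absolute difference. After normalization, the within-group SD of Dlg4 was 0.24 log2 units. The median of this SD over 13856 tested probes with a value on all arrays was 0.25, and 47.3% of them varied less than Dlg4. Most of these are circRNA probes with 1 spot each, while Dlg4 was averaged over up to 10 spots. Their SDs thus hold spot noise that averaging lowers for Dlg4.

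The direction was the same under the other settings that could move the estimate, and the size was not. With arrays weighted by their quality in limma, the normalized difference of Dlg4 was 0.052 (unadjusted P = 0.788 in limma). Without C replicate 2, the array with the lowest normalized value, it was 0.11 (unadjusted P = 0.599 in limma). Without HA replicate 3, the array with the highest, it was 0.15 (unadjusted P = 0.493 in limma), and without C replicate 1 it was 0.40 (unadjusted P = 0.122 in limma). Without C replicate 3 it was 0.24, without HA replicate 1 it was 0.28 and without HA replicate 2 it was 0.31. The difference thus moved most with C replicates 1 and 2 and HA replicate 3. Each of these holds an extreme value of its group, and leaving out such a value shifts a mean of 3 rats by arithmetic.

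**Figure D4:**
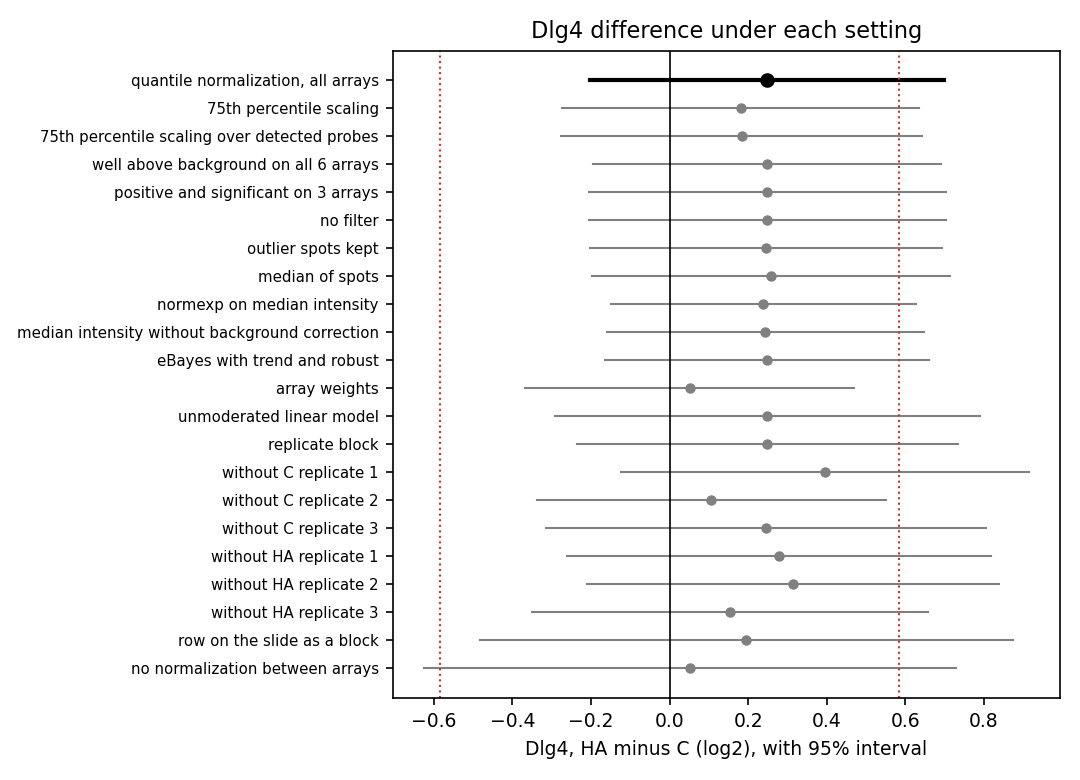
Difference of Dlg4 between HA and C in log2 units (horizontal axis; points are estimates and bars are 95% confidence intervals of the linear models) under each setting (vertical axis), with dotted lines at a fold change of 1.5 in either direction. All estimates lie above 0, from 0.052 to 0.40, and every interval includes 0.

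The arrays lay on 1 slide in 1 scan, 4 arrays in the first row of the slide and 2 in the second. The second row held HA replicates 2 and 3 and no C array, so only HA replicate 1 shared a row with the C group. Against the mean of the 3 C arrays, the normalized log2 signal of Dlg4 on HA replicate 1 was higher by 0.19, at 10.85 against 10.65. Before normalization it was 10.30 against 10.74, a difference of -0.44, opposite in sign to the difference of the whole groups. The mean of the second row before normalization was 11.04. Row and group cannot be told apart for HA replicates 2 and 3.

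Dlg4 was also set against the other linear transcripts on the same array, which had gone through the same digestion. Besides Dlg4, 40 linear transcript probes were well above background on all 6 arrays. Their mean log2 signal before normalization was 5.96, 5.95 and 6.33 on C replicates 1, 2 and 3. It was 5.65, 6.11 and 6.68 on HA replicates 1, 2 and 3, so that HA replicate 1 was lowest in these probes as in Dlg4, and HA replicate 3 was highest.

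Relative to this mean, the Dlg4 signal was 5.07, 4.49 and 4.41 log2 units on C replicates 1, 2 and 3 and 4.65, 4.94 and 4.33 on HA replicates 1, 2 and 3. The relative signal was 4.64 ± 0.31 (SD, n = 3) for HA and 4.66 ± 0.36 (SD, n = 3) for C. The difference of -0.018 log2 units was far below the SD within either group (P = 1.0 in a two-sided exact permutation test). It had the opposite sign to the difference of Dlg4 alone. With quantile-normalized values the relative difference was 0.16 (two-sided exact permutation test, P = 0.5), so that the sign depended on the normalization.

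The other linear transcript probes went both ways between HA and C. Of the 48 that could be tested in limma, 22 had a higher and 26 a lower HA mean, with a median difference of -0.012 log2 units, against -0.005 over all tested probes. An unadjusted P under 0.05 was found for 2 of the 48 (4.17%), both past the fold change of 1.5, against 4.67% of all tested probes for P alone and 2.65% for both limits. An adjusted P under 0.05 was found for 0. The difference of 0.25 for Dlg4 lay inside their range of -0.63 to 0.93. After normalization, 8 of the 40 probes well above background on all arrays varied less within the groups than Dlg4, and the median of their SD was 0.32.

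The partners of PSD-95 could not be followed with the linear transcript probes that had a matched symbol. Linear transcript probes without a symbol could not be searched for them. The paper lists a circRNA of Dlgap2 among those higher in HA. It was not followed here, since circRNA probes were not paired with host genes. Of 39 genes listed for the postsynaptic density and glutamate receptors, among them Dlgap, Shank and Homer genes and the receptor genes Grin1 and Gria2, 0 had a linear transcript probe with a matched symbol. Of 17 genes of the presynapse and axon, 0 had one. Of all 103 genes in these lists and in the lists of markers for neurons, glia, endothelium, hypothalamic peptides and pituitary, only the neuronal Map2 had one. The labeled tissue could therefore not be checked against hypothalamic peptides, glia or the neighbouring pituitary. Both Dlg4 and Map2, the neuronal genes measured, were well above background on all 6 arrays. So were 95.5% to 98.6% of the circRNA probes of an array, and Dlg4 was chosen for its strong signal. Their detection therefore does not check the tissue.

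Map2 encodes a microtubule-associated protein of neuronal dendrites. Its normalized log2 signal was 7.83, 7.90 and 8.12 on C replicates 1, 2 and 3 and 7.87, 7.74 and 8.82 on HA replicates 1, 2 and 3. HA replicate 3 stood above the other 5 arrays, and HA replicate 2 was the lowest. The HA mean of 8.14 ± 0.59 (SD, n = 3) and the C mean of 7.95 ± 0.15 (SD, n = 3) differed by 0.19 (standard error 0.28, limma, adjusted P = 0.944). Without HA replicate 3 the difference was -0.15. Map2 and Dlg4 were both highest on HA replicate 3 after normalization, as were 21 of the 40 linear transcript probes besides Dlg4, whose mean of 6.50 was also highest there. On the other arrays the patterns differed, with Dlg4 lowest on C replicate 2.

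The pattern of Dlg4 was set beside those of the other 26 linear transcript probes that had a gene symbol and were well above background on all arrays. Likeness was the root mean square difference between the normalized log2 values of the probes over the 6 arrays, each centred on its own mean. The median of this difference over the 26 probes was 0.33 log2 units, and the largest was 0.64. For Map2 it was 0.32. A flat line, with the same value on every array, would differ from Dlg4 by 0.23. Only 1 of the 26 probes, a probe of Ldha (0.15), was nearer to Dlg4 than that, and 25 were farther. Pdk3 (0.24) and Gusb (0.24) were next by the same measure and did not resemble Dlg4 more than a flat line would.

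Ldha encodes the A subunit of lactate dehydrogenase, and the probe nearest to Dlg4 (CUST_6_PI421900130) had normalized log2 signals of 7.65, 7.00 and 7.63 on C replicates 1, 2 and 3. On HA replicates 1, 2 and 3 it had 7.72, 7.60 and 8.14, so that it shared with Dlg4 a low value on C replicate 2 and a high value on HA replicate 3. These shared values are part of how the probe was picked. Its difference between the groups was 0.40 (standard error 0.23, limma, adjusted P = 0.923), and it was 0.18 without C replicate 2 and 0.24 without HA replicate 3. A second probe for Ldha (A_44_P210461) was less like Dlg4, at a root mean square difference of 0.31. This second probe was at 9.13 on C replicate 1 and 9.50 on C replicate 2, the reverse order of the first probe. The likeness to Dlg4 was thus not shared by both Ldha probes.

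Pdk3 encodes a pyruvate dehydrogenase kinase, and its difference between HA and C was 0.25 (standard error 0.19, limma, adjusted P = 0.923). It was highest on HA replicates 2 and 3, at 5.43 and 5.38, and lowest on HA replicate 1, at 4.91. Without HA replicate 1, its lowest array, the difference of Pdk3 was 0.42 (limma, unadjusted P = 0.0474). No other omission of an array gave an unadjusted P under 0.05 in limma for a gene named here. Without HA replicate 2 the difference of Pdk3 was 0.15 (limma, unadjusted P = 0.484). With scaling to the 75th percentile it was 0.39 (limma, unadjusted P = 0.0993). Gusb is a lysosomal beta-glucuronidase often used as a reference gene. Its probe was well above background on all 6 arrays but far weaker than that of Dlg4, which had a C mean of 10.65. Gusb varied little in the C group, at 3.93 ± 0.02 (SD, n = 3). In the HA group it was at 3.95 ± 0.25 (SD, n = 3), a difference of 0.020 (standard error 0.18, limma, adjusted P = 0.997) that became 0.24 with scaling to the 75th percentile. Among the 14100 circRNA probes with a value on all arrays, 254 (1.80%) were as close to Dlg4 as the nearest Ldha probe.

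**Figure D5:**
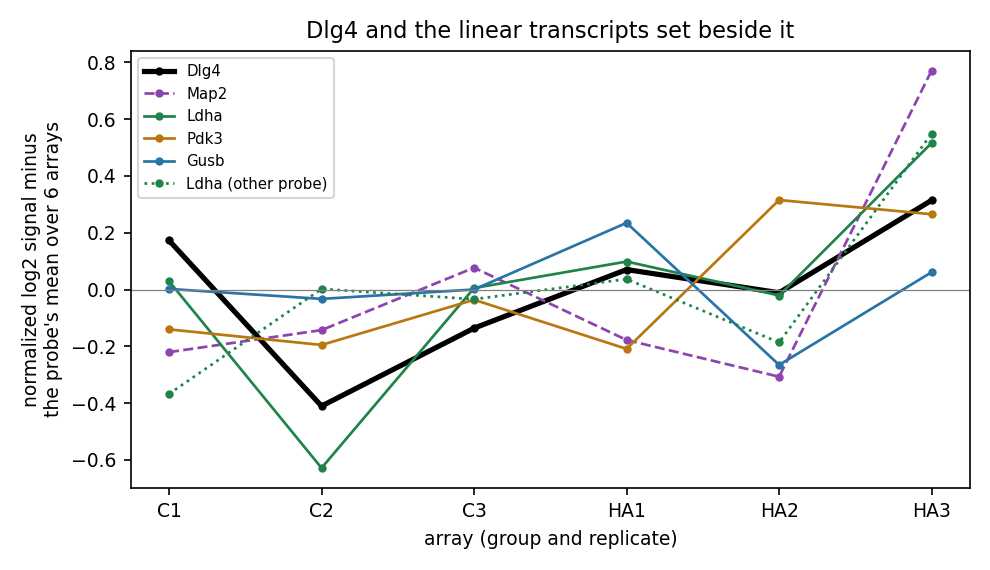
Normalized log2 signal minus the mean of each probe over the 6 arrays (vertical axis) for Dlg4, the 3 linear transcript probes with the smallest root mean square difference from it, the other Ldha probe and Map2 on each array (horizontal axis; lines only join the points of a probe). The nearest Ldha probe falls with Dlg4 on C replicate 2 and rises with it on HA replicate 3, while Map2 rises on HA replicate 3 and not on C replicate 1.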

How the data were processed

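The authors read the one-color (Cy3) arrays with Agilent Feature Extraction 11.0.1.1. They deposited linear spot intensity values for each array, as the background-subtracted and detrended gProcessedSignal and as the median intensity of spot and local background, with 0 or 1 flags as other columns. No normalization between arrays had been applied to the deposited intensity values.

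Here, spots marked as population outliers or non-uniform were dropped, gProcessedSignal was put on the log2 scale and averaged over the spots of each probe, and quantile normalization was run in limma 3.58.1 (R 4.3.3). A probe counted as well above background on an array when most or an even share of its spots carried that flag. Probes so flagged on at least 3 arrays, with at least 2 values per group, were tested with lmFit and eBayes (moderated, two-sided, no covariates), with Benjamini-Hochberg adjustment over all 13886. Single values were compared by exact permutation over arrays in scipy 1.17.1. Each rat is 1 sample, and the number of arrays limits the precision. The fit was tested on simulated data. The members and gene lists were chosen with earlier results of these data known.

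The genes named were Dlg4, the genes of the fixed lists with a linear probe, and the 3 probes with the smallest root mean square difference from Dlg4. The second Ldha probe was added after its values were seen. Accessions were matched without version numbers to the GRCr8 annotation, which named 39 of the 62 linear probes. The files name another build (rn4), so no coordinates are given. The probe sequence was not used here, and circRNA probes are not paired with host genes in the files used. Alternatives were other scalings, filters, spot summaries and background corrections, other limma settings, a block for the replicate number, and the omission of each array. Figures were drawn with matplotlib 3.10.9.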

Additional observations from a re-analysis of the deposited data

How the results depend on the processing

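The limma difference of Dlg4 kept its sign and stayed short of the limits under the 15 other settings and with each array left out. It was 0.052 to 0.26 log2 units under the settings (limma, adjusted P 0.906 to 1.0) and 0.11 to 0.40 with arrays left out. Settings that changed only the probe filter, the variance model or the replicate block could not move the estimate, which stayed at 0.25. The 15 settings include the fit without normalization between arrays, whose 0.052 is the difference before normalization given next. The difference before normalization (0.052) was -0.44 in the first row of the slide and lay between -0.098 and 0.30 on omission of single arrays. The difference relative to the other linear probes (-0.018) was 0.027 with normexp on the median intensity, 0.040 on the median intensity without background correction and 0.16 on quantile-normalized values, and lay between -0.17 and 0.19 on omission of single arrays. Gusb (0.020) was at 0.24 with scaling to the 75th percentile, at -0.012 on the median intensity without background correction and at -0.093 to 0.16 with arrays left out, and Map2 at -0.15 to 0.39. The causes were not tested.

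The 368 probes past both limits (220 higher, 148 lower in HA) became 66 with normexp, 146 on the median intensity without background correction, 127 in the unmoderated model and 633 with a block for the row of the slide. They ranged from 254 to 751 with arrays left out, with 588 without C replicate 1 and 751 without C replicate 3. Scaling to the 75th percentile gave 377 higher and 71 lower. No probe had an adjusted P under 0.05 in limma (0), against 1 when arrays were weighted, 2 with the row as a block, 4 without normalization between arrays and 0 to 1 with arrays left out.

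Rats that share a replicate number are different animals. Their deviations from the group means had correlations of -0.032, -0.20 and 0.073 across 13856 probes. Pairs with different numbers had correlations of -0.18 to 0.23, so that the same-numbered pairs were not the more alike. Deviations from a group mean sum to 0, which ties these correlations to each other. Under the replicate block, the normalized difference of Dlg4 was 0.25 (standard error 0.21, limma, unadjusted P = 0.274), and 474 probes were called. In the 3 same-numbered pairs the differences of 0.052 before normalization and of -0.018 relative to the linear probes had an exact sign-flip P of 1.0, where 3 pairs allow no P under 0.25. The settings on the row of the slide and without normalization were chosen after seeing the data.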
